A study of Mus musculus with 6 samples.

Results

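The MHC class II genes and Ciita are 8 of the 54532 genes listed for this RNA-seq experiment, and they were taken by their symbols. The members were chosen with earlier results of these data known. They are H2-Aa, H2-Ab1 and H2-Eb1, which encode chains of the classical class II molecules, H2-DMa, H2-DMb1 and H2-DMb2, which encode chains of the peptide editor H2-DM, Cd74, which encodes the invariant chain, and Ciita, which encodes the class II transactivator. Of these, 7 reached 1 TPM in 2 or more of the 6 libraries, where TPM gives reads per unit of gene length as a share of a fixed library total. Each of these 7 stood above 1 TPM in all 6 libraries, with the lowest value at 3.49 TPM (Ciita in untreated replicate A), and they were tested. H2-DMb2 did not pass, and its values are given without a call.

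The cells were bone-marrow-derived macrophages (BMDMs), primary macrophages grown from the marrow of wild-type C57BL/6 mice in medium conditioned by L929 cells. Poly-A RNA was sequenced from 3 groups of 2 libraries, labelled replicates A and B. Cells were left untreated (Untr), were given LPS, a bacterial cell wall product sensed by the receptor TLR4, at 100 ng/ml for 2 h (LPS), or received metformin, an antidiabetic drug, at 5 mM for 6 h before the same LPS stimulation (Met + LPS). No library received metformin without LPS, and nothing in the labels says whether A and B came from separate mice, so the p-values measure only the spread between these libraries, which may be technical.

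Class II molecules present peptides from endosomes to CD4+ T cells. Their alpha and beta chains assemble with the invariant chain, which blocks the groove until proteases trim it to a fragment called CLIP, and H2-DM then exchanges CLIP for other peptides. Transcription of these genes depends on CIITA, a coactivator that does not bind DNA itself but is recruited to an X box and a Y box in the promoter by the factors RFX, CREB and NF-Y. In macrophages CIITA is classically induced by interferon-gamma, while B cells and dendritic cells express it constitutively. C57BL/6 mice lack a functional alpha chain for I-E, so that the product of H2-Eb1 does not reach the surface as an I-E molecule in this strain.

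Promoters are shown here because the X and Y boxes, where CIITA is recruited, can be looked for by sequence. In the RefSeq windows (GRCm38.p6, 250 bases before to 50 after a gene start), 4 members held AAC followed on the same strand by TGATTGG, with 28 or 29 bases from start to start. The capitals mark 11 bases from that AAC, on the X box side, and the TGATTGG of the Y box, which holds the reverse complement of CCAAT.
H2-Aa, chr17:34287851-34287924, minus strand: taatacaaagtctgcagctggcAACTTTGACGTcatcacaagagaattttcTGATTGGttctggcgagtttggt
H2-Eb1, chr17:34305756-34305828, plus strand: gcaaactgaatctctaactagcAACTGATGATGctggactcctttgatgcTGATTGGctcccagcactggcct
H2-DMb2, chr17:34145106-34145179, plus strand: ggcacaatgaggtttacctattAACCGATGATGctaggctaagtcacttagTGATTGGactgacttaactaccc

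The fourth was H2-DMb1, whose stretch (chr17:34153077-34153150, plus strand) lies in an annotated 5′ UTR and is not printed. Its 11 bases on the X box side, AACTGATGATG, were those of H2-Eb1, and over the 36 bases from AAC to the end of TGATTGG it was identical to H2-DMb2 at 32 and to H2-Aa at 15. Searched on both strands, the spaced pair occurred in 83 of 32851 promoter windows (0.253%), TGATTGG alone in 7.82% and AACTGATGATG in 12 windows (0.0365%). The word AACTGATGATG was taken from H2-Eb1 itself, so its match there was given in advance. The pair was searched only at 28 or 29 bases, so its share holds for that spacing. These rates are no test of the members. The 2 windows of H2-DMa held no such pair. H2-DMa as listed with the TPM values starts further downstream, at position 34135182 of chromosome 17. H2-DMb2 and H2-DMb1 are listed from 34143307 and 34153072, so their stretches lie inside the listed genes and not before their listed starts. Among class II loci outside the 8, the windows of H2-Eb2 and H2-Oa also held the pair, and that of H2-Ob did not. H2-Ab1, Cd74 and Ciita had no entry. These are matches of letters and not shown binding sites.

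In the untreated libraries, Cd74 was the most abundant member, and Ciita and H2-DMb2 were the least abundant. TPM values are divided by gene length and can be compared between genes. Cd74 stood at 598 and 566 TPM in replicates A and B, H2-Aa at 149 and 147, H2-Eb1 at 140 and 136, and H2-Ab1 at 111 and 114. The H2-DM genes were lower, at 59.4 and 56.2 TPM for H2-DMb1, 34.5 and 35.2 for H2-DMa, and 0.846 and 1.22 for H2-DMb2, while Ciita stood at 3.49 and 4.17 TPM. The pairs of values of neighbouring genes in this order did not overlap in the untreated libraries. The order rests on gene length. With the transcript length listed beside each gene in place of the gene length that the TPM values imply, H2-Ab1 (152 ± 2.52, SD, n = 2) stood above H2-Eb1 (138 ± 2.86, SD, n = 2), and the other neighbours kept their places.

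These levels rest on many reads for most members. The TPM values multiplied by gene length fell on whole multiples of a step, which gave 5394 to 7706 reads per library for Cd74, 1544 to 2117 for H2-Aa and 253 to 528 for Ciita. H2-DMb2 rested on 11 and 15 reads in untreated, 9 and 9 in LPS and 5 and 2 in Met + LPS libraries, against 25457016 to 30762755 reads on genes per library. Reads of H2-DMb1 and H2-DMb2 are uncertain, since 517 of their 31-base words are common to both and only 68.6% and 63.4% of their words were their own, so the authors' counting could have split them. For H2-Aa, H2-Ab1, H2-Eb1, Cd74 and Ciita, 97.2% to 99.7% of the words were found in no other gene, and for H2-DMa 90.8%.

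Metformin before LPS was compared with LPS alone to ask how the drug changes the acute response. All 7 tested members were lower in Met + LPS, by 24.9% to 38.5% of the LPS mean, and each was called at an adjusted p under 0.01 in limma with Benjamini-Hochberg adjustment. Over all 12755 tested genes, 18% were called lower, 14.5% higher and 32.6% in either direction. The median log2 fold change of the members was -0.55, against -0.03 for all tested genes, and 5.24% to 14.1% of the tested genes had a lower fold change than a given member. In bulk RNA, fewer cells of a type and less RNA per cell cannot be told apart.

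Ciita, the transactivator, stood at 6.42 and 7.59 TPM in the LPS libraries and at 4.33 and 4.59 in the Met + LPS libraries. Both Met + LPS values lay below both LPS values, and the mean was 36.4% lower (log2 fold change -0.55 ± 0.11, SE, adjusted p = 0.00687 in limma). It had the largest adjusted p of the 7 members. Ciita kept its direction in all 13 alternatives counted but passed the threshold in 6 of them. Without the filter, for instance, it was not called (adjusted p = 0.0332 in limma). The 13 do not include fits without an untreated library, a group outside this comparison. In those, the members' median log2 fold change stayed at -0.55, but not every member kept its call. Leaving out either LPS or either Met + LPS library ended the call (adjusted p = 0.0121 to 0.0418 in limma).

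All 3 genes for classical class II chains fell. H2-Aa, the I-A alpha chain, went from 140 and 148 TPM to 109 and 107 (log2 fold change -0.41 ± 0.04, SE, adjusted p = 2.6e-04 in limma). H2-Ab1, its beta chain partner, went from 117 and 126 TPM to 83.6 and 81.7 (log2 fold change -0.55 ± 0.04, SE, adjusted p = 1.6e-04 in limma). H2-Eb1, the I-E beta chain, went from 133 and 149 TPM to 101 and 91.3 (log2 fold change -0.55 ± 0.07, SE, adjusted p = 9.4e-04 in limma). For each of these genes the groups did not overlap, as for all 7 tested members, while 40% of tested genes were lower without overlap. Of the 7, H2-Aa had the smallest decrease.

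Cd74 had the largest decrease in absolute level, from 709 and 749 TPM in the LPS libraries to 506 and 472 in the Met + LPS libraries (log2 fold change -0.57 ± 0.05, SE, adjusted p = 2.2e-04 in limma). Its product is both the chaperone of class II chains and a surface receptor for the cytokine MIF.

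H2-DMa, the alpha chain of the peptide editor, had the largest relative decrease among the tested members, from 23.6 and 25.1 TPM to 16.2 and 13.8 (log2 fold change -0.67 ± 0.08, SE, adjusted p = 7.3e-04 in limma). H2-DMb1, a beta chain of the editor, went from 46.9 and 49.4 TPM to 34.9 and 32.1 (log2 fold change -0.51 ± 0.06, SE, adjusted p = 6.0e-04 in limma). The near-identical H2-DMb2 stood at 0.691 and 0.721 TPM in LPS and at 0.387 and 0.132 in Met + LPS libraries. When every gene above 0 was tested, its log2 fold change was -0.45 (adjusted p = 0.109 in limma), which did not pass.

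**Figure D1:**
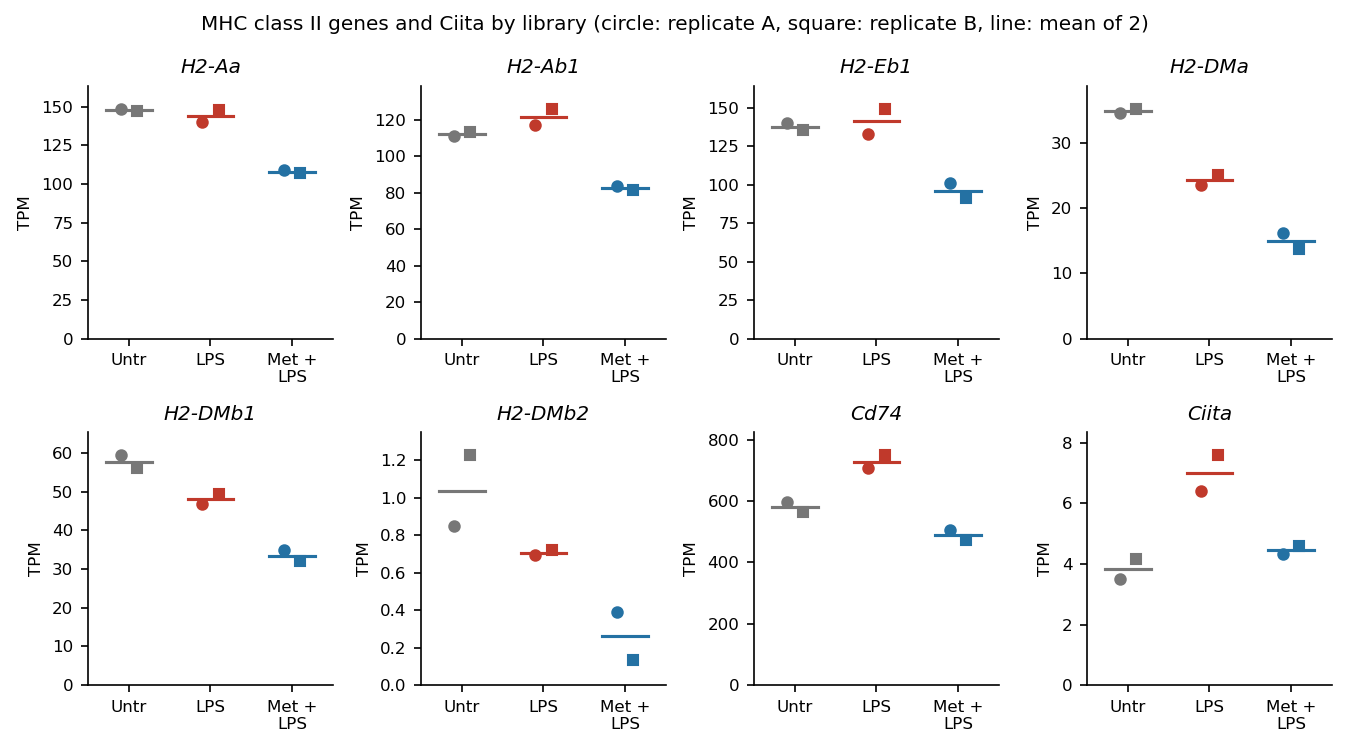
TPM of the 8 genes in each of the 6 libraries, with untreated in gray, LPS in red and Met + LPS in blue. Circles are replicate A, squares replicate B, lines the mean of 2, and every vertical axis starts at 0. Both Met + LPS values lie below both LPS values in all 8 panels, while LPS lies above untreated for Ciita, Cd74 and H2-Ab1 and below it for the H2-DM genes, in TPM as deposited.

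For this comparison the study set a log2 cut-off of 0.7 in either direction on fold changes from DESeq2, a test of read counts. Applied here to log2(TPM + 1), which is another measure, it was passed by none of the 7 members and by 8.28% of the tested genes. H2-DMa lay nearest, and it crossed to -0.70 with a pseudocount of 0.1 and to -0.71 in voom on the recovered reads, a test added after seeing the data. Without LPS replicate A or Met + LPS replicate A it also crossed, at -0.71 and -0.78.

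Each library was also divided by its median ratio to the others over genes. These factors were nearly equal in the LPS (0.902 and 0.898) and Met + LPS (0.895 and 0.895) libraries, so this rescaling could hardly move the comparison and is no test of how it depends on scale. On the rescaled values the 7 members were called lower, as 17.8% of tested genes were, with log2 fold changes from -0.67 for H2-DMa to -0.40 for H2-Aa.

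LPS was compared with untreated cells to set the baseline response. Within 2 h the members split. On the deposited scale Ciita and Cd74 rose, H2-DMa and H2-DMb1 fell, and the 3 classical chain genes were not called. That makes 4 of 7 called, against 76.3% of all tested genes. Fewer members were called when either untreated library was left out, and the share of all genes called in those fits is not given here. Of all tested genes, 16.2% were called higher and 60.1% lower. The libraries of the groups did not overlap for 5 members, against 91.6% of genes, and no member passed the study's cut-off of 2 on the log2 scale, which 6.08% of genes passed. The members' median log2 fold change was 0.03, against -0.48 for all tested genes. This comparison and the one above have the LPS libraries in common, so the changes in them are not independent.

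Ciita rose from 3.49 and 4.17 to 6.42 and 7.59 TPM, 1.83-fold in the means (log2 fold change 0.73 ± 0.11, SE, adjusted p = 7.4e-04 in limma). Cd74 rose from 598 and 566 to 709 and 749 TPM, 1.25-fold in the means (log2 fold change 0.32 ± 0.05, SE, adjusted p = 8.1e-04 in limma). In both genes the LPS libraries lay above the untreated ones. Without Untr replicate B, Cd74 was not called (adjusted p = 0.0119 in limma).

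H2-DMa fell from 34.5 and 35.2 to 23.6 and 25.1 TPM (log2 fold change -0.50 ± 0.08, SE, adjusted p = 8.8e-04 in limma), which was close to the median of all genes. H2-DMb1 fell from 59.4 and 56.2 to 46.9 and 49.4 TPM (log2 fold change -0.26 ± 0.06, SE, adjusted p = 0.0045 in limma), a direction that turned to 0.22 when the libraries were rescaled. Leaving out any of the 4 libraries ended this call (adjusted p = 0.0114 to 0.0421 in limma), as did testing without the filter or without the trend (adjusted p = 0.0147 and 0.0143 in limma). In voom on recovered reads with rescaling it was called higher, at 0.23 (adjusted p = 0.00609 in limma). The call of H2-DMa ended without Untr replicate A or B (adjusted p = 0.0111 and 0.0133 in limma). H2-DMb2 stood at 0.846 and 1.22 TPM in untreated and at 0.691 and 0.721 in LPS libraries.

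Among the classical chains, H2-Ab1 stood at 111 and 114 TPM in untreated and at 117 and 126 in LPS libraries (log2 fold change 0.11, 95% interval 0.0045 to 0.22, adjusted p = 0.0514 in limma). H2-Eb1 differed by 0.03 on the log2 scale (95% interval -0.13 to 0.20, adjusted p = 0.663 in limma). H2-Aa differed by -0.04 (95% interval -0.13 to 0.05, adjusted p = 0.369 in limma). The 95% intervals of these 3 genes on the deposited scale reached no further than 0.22 from 0 on the log2 scale.

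**Figure D2:**
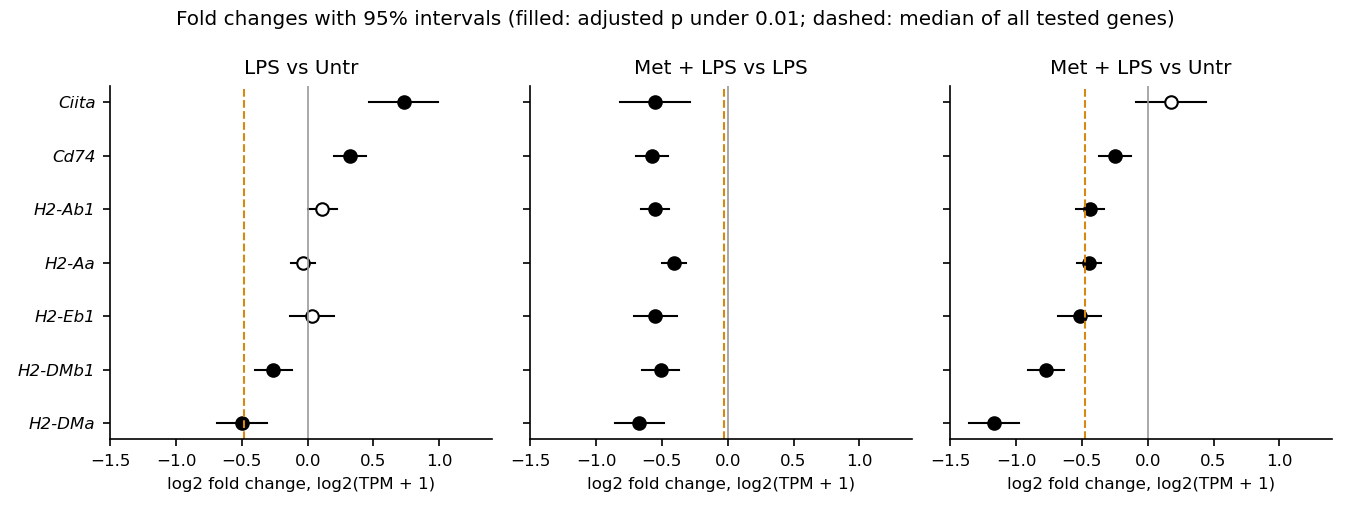
Log2 fold changes of the 7 tested members on the log2(TPM + 1) scale, with 95% intervals, in the 3 comparisons. Filled points passed an adjusted p of 0.01 in limma, the solid line is 0 and the dashed line is the median of the 12755 tested genes. Every member sits left of both lines in Met + LPS vs LPS, from -0.67 to -0.41.

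The LPS comparison depended on the scale, as the median of all genes moved from -0.48 to -0.05 when the libraries were rescaled by the median ratio. On the rescaled values 5 members were called higher after LPS and none lower, against 29.1% of genes called higher and 29.5% lower. These were Ciita (1.12), Cd74 (0.81), H2-Ab1 (0.60), H2-Eb1 (0.52) and H2-Aa (0.45), all as log2 fold changes. H2-DMb1 at 0.22 (adjusted p = 0.0137 in limma) and H2-DMa at -0.03 (adjusted p = 0.768 in limma) were not called.

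**Figure D3:**
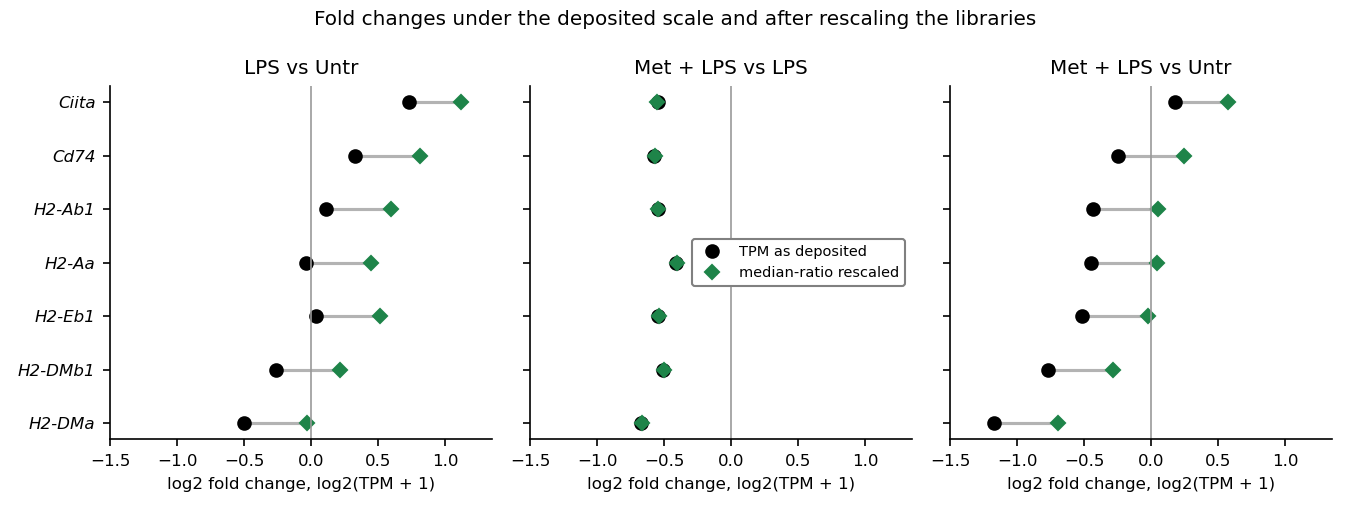
Log2 fold changes of the 7 tested members from TPM as deposited (black circles) and after median-ratio rescaling (green diamonds), with a gray line joining the values of a gene. Rescaling moves every member to the right in the comparisons with untreated cells, Ciita from 0.73 to 1.12 after LPS, and leaves the members in place in Met + LPS vs LPS, where the factors of both groups are nearly equal.

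Set against untreated cells, the Met + LPS libraries had 6 of the 7 members called, all lower, where 75.1% of tested genes were called, 16.3% higher and 58.8% lower. The groups were without overlap for all 7, against 90.7% of genes, and none passed a cut-off of 2 on the log2 scale, taken over here from the LPS comparison, which 5.35% of genes passed. H2-DMa had the largest difference, from 34.5 and 35.2 TPM in untreated to 16.2 and 13.8 in Met + LPS libraries (log2 fold change -1.17, adjusted p = 1.4e-05 in limma). H2-DMb1 followed at -0.77, then H2-Eb1 (-0.52), H2-Aa (-0.45), H2-Ab1 (-0.44) and Cd74 (-0.25). The call of Cd74 ended without Untr replicate A, Untr replicate B or Met + LPS replicate B (adjusted p = 0.0111 to 0.0314 in limma). Ciita stood at 3.49 and 4.17 TPM in untreated and at 4.33 and 4.59 in Met + LPS libraries, and its difference of 0.18 was not called (95% interval -0.09 to 0.44, adjusted p = 0.171 in limma). After rescaling, H2-DMa (-0.69) and H2-DMb1 (-0.28) remained called lower. Cd74 (0.24) and Ciita (0.57) were then called higher, where 31.4% of genes were called higher and 32.2% lower, and H2-Aa (0.04), H2-Ab1 (0.05) and H2-Eb1 (-0.02) were not called.

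Ratios within a library do not depend on the scaling of the libraries. The ratio of H2-Aa to H2-Ab1 TPM, the alpha and beta chains of I-A, was 1.34 and 1.29 in untreated, 1.20 and 1.17 in LPS and 1.30 and 1.31 in Met + LPS libraries. Both LPS values lay below the other 4. The ratio of Cd74 to H2-Ab1 was 5.39 and 4.98 in untreated, 6.05 and 5.94 in LPS and 6.05 and 5.78 in Met + LPS libraries, and both treated groups lay above the untreated one. The ratio of H2-DMa to H2-DMb1, the chains of the peptide editor, was 0.581 and 0.626, then 0.504 and 0.509, then 0.464 and 0.429, with no overlap between the groups. Between groups of 2 and 2 libraries an exact permutation test (two-sided) cannot give a p below 0.333, and no other test of the ratios was run.

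**Figure D4:**
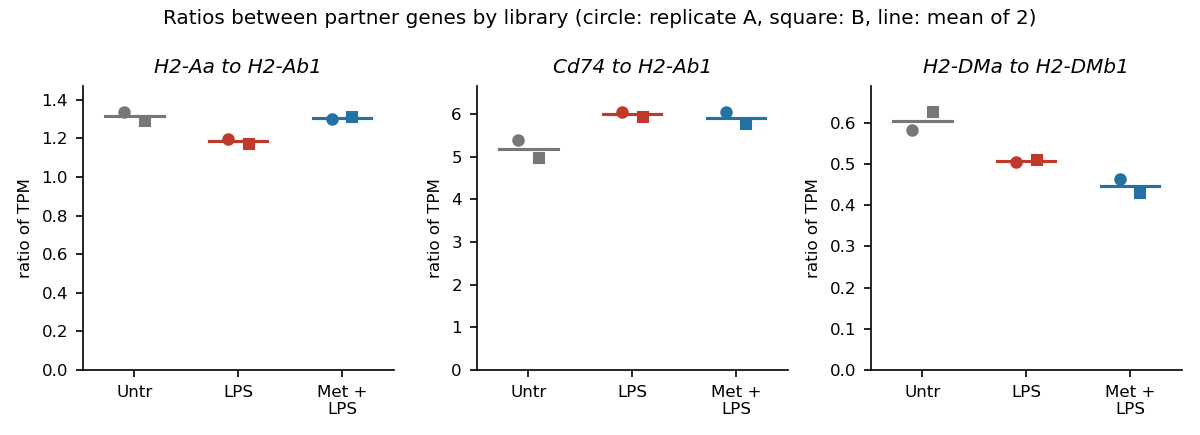
Ratios of TPM between partner genes in each of the 6 libraries, with vertical axes from 0, circles for replicate A, squares for replicate B and lines for the mean of 2. The H2-Aa to H2-Ab1 ratio is lowest in the LPS libraries (1.20 and 1.17), and the H2-DMa to H2-DMb1 ratio is lowest in the Met + LPS libraries (0.464 and 0.429).

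Ciita (ENSMUSG00000022504) shares its position with another gene. It lies on chromosome 16 from 10480059 to 10528418 (GRCm38, plus strand), and its exons overlap those of Dexi, on the opposite strand, over 329 bases. The library kit does not mark strand, so reads from the overlap cannot be assigned. Dexi stood at 9.55 ± 0.969 TPM in untreated, 14.7 ± 0.0140 in LPS and 8.89 ± 0.630 in Met + LPS libraries (SD, n = 2 each). On the log2 scale it differed by 0.58 between LPS and untreated (adjusted p = 5.8e-04 in limma) and by -0.67 between Met + LPS and LPS libraries (adjusted p = 9.4e-04 in limma), and the part of Dexi in the Ciita values was not tested. The H2 genes lie close together on chromosome 17. H2-DMa (ENSMUSG00000037649) runs from 34135182 to 34139101, H2-DMb2 (ENSMUSG00000037548) from 34143307 to 34151553 and H2-DMb1 (ENSMUSG00000079547) from 34153072 to 34160230. H2-Ab1 (ENSMUSG00000073421) runs from 34263209 to 34269418, H2-Aa (ENSMUSG00000036594) from 34282744 to 34287827 on the minus strand and H2-Eb1 (ENSMUSG00000060586) from 34305877 to 34316199. Cd74 (ENSMUSG00000024610) lies on chromosome 18 from 60803848 to 60812646.

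Of the other class II loci, none reached the filter. H2-Eb2, H2-Oa and H2-Ob stayed below 1 TPM in all 6 libraries, and H2-Ea-ps, the disabled I-E alpha gene, was listed at 0 in each. H2-Oa and H2-Ob encode H2-O, an inhibitor of H2-DM that is typical of B cells.

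The factors that hold CIITA at the promoter were mostly not called in Met + LPS vs LPS. Of 7 tested, 1 fell and 6 were not called, where 18% of all tested genes fell and 14.5% rose. The median log2 fold change was -0.01 against -0.03 for all tested genes. Whether they differed from the class II genes was not tested. The factor that fell was Nfyb, a subunit of the Y box binding factor NF-Y, from 12.5 and 11.6 TPM to 6.37 and 6.87 (log2 fold change -0.78 ± 0.08, SE, adjusted p = 3.6e-04 in limma). The other NF-Y subunits, Nfya (0.15, adjusted p = 0.0763 in limma) and Nfyc (0.14, adjusted p = 0.27 in limma), were not called. Rfx5, Rfxap and Rfxank encode the subunits of RFX, which binds the X box. Their log2 fold changes were 0.03, -0.01 and -0.34, and Creb1, which binds beside RFX, had -0.12, none of them called.

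After LPS alone, all 7 of these factors were called, 3 higher and 4 lower, where 76.3% of all tested genes were called, 16.2% higher and 60.1% lower. Rfx5 (0.51), Creb1 (0.69) and Nfyb (0.30) rose, and Rfxank (-1.13), Rfxap (-1.24), Nfya (-0.80) and Nfyc (-0.54) fell, with a list median of -0.54 against -0.48 for all genes. Rfxap, for instance, went from 30.3 and 26.6 TPM to 11.1 and 11.7. On the rescaled values 3 were called higher and 3 lower, against 29.1% and 29.5% of all genes.

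Of 14 tested regulators upstream of Ciita, 10 rose and 1 (Tgfb1) fell after LPS, against 16.2% and 60.1% of all tested genes, with a median log2 fold change of 0.87 against -0.48 for all genes. On the rescaled values 11 were called higher and none lower, against 29.1% and 29.5% of all genes, so that the fall of Tgfb1 was not called there. In Met + LPS vs LPS, 10 fell and 1 (Prdm1) rose, against 18% and 14.5% of all genes, with a median of -0.39 against -0.03. Interferon-gamma itself, Ifng, was listed at 0 in all 6 libraries. Irf1, a factor that binds the interferon-gamma-responsive Ciita promoter, went from 37.1 ± 1.59 TPM to 1063 ± 13.4 after LPS and stood at 890 ± 11.6 in Met + LPS libraries (SD, n = 2 each). Jak2, a kinase of the interferon-gamma receptor, went from 28.3 to 559 and 407 TPM in the means of the 3 groups. Socs1, a feedback inhibitor of JAK kinases, went from 1.32 to 95.4 and 53.9 TPM, and Il10, a cytokine that lowers class II on macrophages, from 4.34 to 160 and 66.9 TPM. Both Irf1 and Jak2 were called in Met + LPS vs LPS, at -0.26 and -0.46 on the log2 scale, as were Socs1 at -0.81 and Il10 at -1.25. The upstream list pools activators with inhibitors such as Socs1 and Il10, so its counts and medians have no single direction for Ciita. These lists were chosen with earlier results of these data known.

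Endosomal proteases and processing genes, which cut the invariant chain and antigens, were mixed. Of 10 tested, in Met + LPS vs LPS, 2 rose (Ctsl, Ctsz), 3 fell (Ifi30, Sppl2a, Cst3) and 5 were not called, with a median of -0.09 against -0.03 for all genes. The shares of all tested genes were 14.5% called higher and 18% lower. Cst3, the protease inhibitor cystatin C, went from 2783 ± 38.9 to 2274 ± 6.12 TPM (SD, n = 2 each). Ifi30, the endosomal thiol reductase GILT, had a log2 fold change of -0.22 and Sppl2a, which cleaves the remaining stub of the invariant chain, -0.20. Ctsd, the aspartic protease cathepsin D, had -0.10 and was not called. After LPS alone 9 of the 10 fell and 1, Sppl2a, rose on the deposited scale, against 60.1% and 16.2% of all tested genes. The list median was -0.39 against -0.48 for all genes. On the rescaled values 4 were called higher and none lower, against 29.1% and 29.5% of all genes.

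Genes that set how long class II stays at the surface went in different directions. March1, a ubiquitin ligase that directs class II to degradation, went from 11.4 and 11.2 TPM in untreated to 3.01 and 3.11 in LPS and 1.70 and 1.34 in Met + LPS libraries, and was called lower in Met + LPS vs LPS (log2 fold change -0.69, adjusted p = 0.0016 in limma). March8, a related ligase, was called higher there at 0.34. Cd83, which opposes March1, rose from 105 to 1181 TPM in the means after LPS and stood at 1051 in Met + LPS libraries (log2 fold change -0.17, adjusted p = 0.0354 in limma, not called). Ube2d3, a ubiquitin-conjugating enzyme, was not called in Met + LPS vs LPS either (0.04). Of the 5 tested, 1 rose, 1 fell and 3 were not called in Met + LPS vs LPS, where 14.5% of all tested genes rose and 18% fell. The list median was -0.16 against -0.03 for all genes. After LPS 3 rose and 2 fell on both scales, with a deposited-scale median of 0.20 against -0.48 for all genes. The shares of all genes after LPS were 16.2% higher and 60.1% lower, and 29.1% and 29.5% on the rescaled values.

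None of the 3 tested partners of the invariant chain fell in Met + LPS vs LPS. Mif, the cytokine that binds CD74, differed by 0.23 on the log2 scale and was not called (adjusted p = 0.0317 in limma). Cd44, the signalling coreceptor, had -0.09 and was not called. Cxcr4, a chemokine receptor that also pairs with CD74, fell from 471 and 454 TPM to 12.2 and 14.7 after LPS and was called higher in Met + LPS libraries, at 95.2 and 75.5 TPM (log2 fold change 2.57, adjusted p = 2.2e-05 in limma). In all, 1 rose and 2 were not called in Met + LPS vs LPS, where 14.5% of all tested genes rose and 18% fell, with a median of 0.23. After LPS 1 rose and 2 fell, against 16.2% and 60.1% of all genes, with a median of -0.40. On the rescaled values 1 was called higher and 1 lower after LPS, against 29.1% and 29.5% of all genes.

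The costimulatory ligands, which T cells read beside class II, all rose with LPS, 6 of 6 on both scales, with a median log2 fold change of 3.43 against -0.48 for all genes. The share of all tested genes called higher was 16.2% on the deposited scale and 29.1% on the rescaled values. In Met + LPS vs LPS 4 of the 6 fell (Cd40, Cd80, Icam1, Icosl), 1 rose and 1 was not called, with a median of -0.31. There 18% of all genes fell and 14.5% rose. Cd40 went from 5.56 to 703 TPM after LPS and stood at 400 in Met + LPS libraries (log2 fold change -0.81, adjusted p = 4.3e-05 in limma). Icam1, an adhesion ligand, fell by 0.72 on the log2 scale and Icosl by 0.27. Cd274, the inhibitory ligand PD-L1, had 0.15 and was not called. The ligand that rose was Cd86, from 24.4 and 25.2 to 38.1 and 38.5 TPM (log2 fold change 0.61, adjusted p = 1.5e-04 in limma). Cd86, Cd80, Tgfb1, Prdm1, Ctsl and Ctsz are named here after their values were seen.

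**Figure D5:**
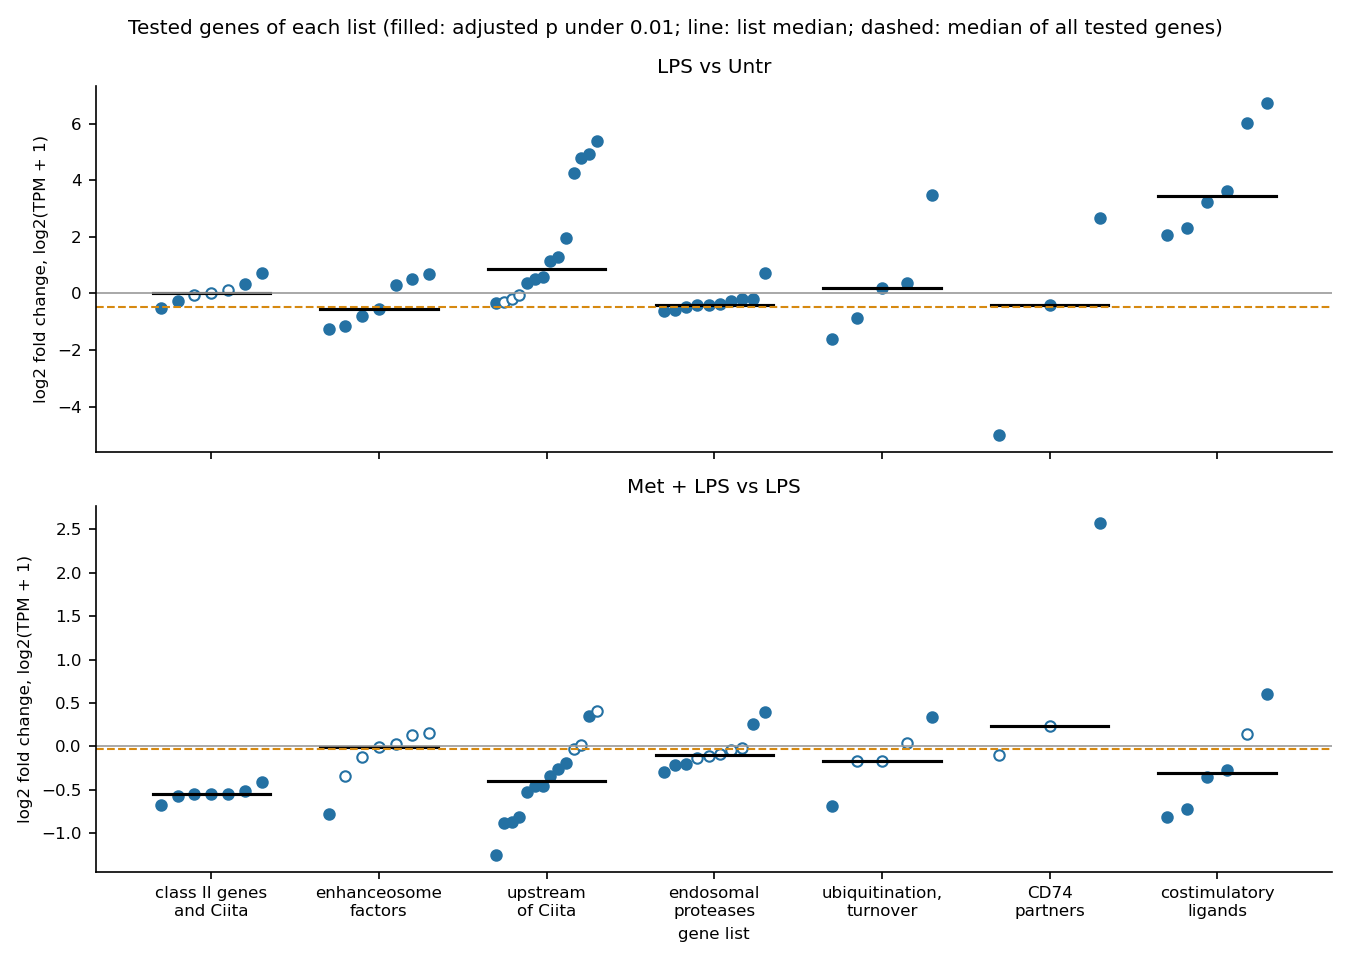
Log2 fold changes on the log2(TPM + 1) scale of the tested genes of each list, for LPS vs untreated (upper panel) and Met + LPS vs LPS (lower panel). Filled points passed an adjusted p of 0.01 in limma, black lines are list medians and the dashed line is the median of all tested genes. In the lower panel all 7 class II genes and Ciita lie between -0.67 and -0.41, while the enhanceosome factors have a median of -0.01.

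Markers of the labelled cell type were present and differed between the groups. All 8 macrophage markers passed the filter, with summed levels of 44621 to 46599 TPM in untreated, 37412 to 37903 in LPS and 30877 to 30948 in Met + LPS libraries. Lyz2, which makes up most of that sum, went from 26835 ± 196 TPM in LPS to 21292 ± 126 in Met + LPS libraries (SD, n = 2 each). In Met + LPS vs LPS 6 of the 8 were called lower and none higher, against 18% and 14.5% of all tested genes. The list median was -0.34 against -0.03 for all genes. After LPS 2 were called higher and 5 lower, against 16.2% and 60.1% of all genes. On the rescaled values 4 were called higher and 1 lower, against 29.1% and 29.5%. Of 10 dendritic cell markers, 5 passed the filter, with summed levels of 31.9 to 35.4, 26.6 to 29.3 and 32.2 to 34.6 TPM, and 2 (Itgax, Ccr7) were called higher and 1 (Clec10a) lower in Met + LPS vs LPS. The dendritic cell gene Flt3 was at 0.107 TPM or lower in every library. After LPS 2 of the 5 were called higher, Zbtb46 and Xcr1 (log2 fold changes 1.04 and 0.67), and 3 were not called, where 16.2% of all tested genes were called higher. Zbtb46 passed the filter only through the LPS libraries (1.53 and 1.14 TPM), and Xcr1 only through the Met + LPS libraries (1.13 and 1.17 TPM). Neither was called in Met + LPS vs LPS. Of 7 B cell markers only Cd79b passed, with summed levels of 2.65 to 3.20, 1.48 to 1.59 and 0.789 to 0.806 TPM. Of 7 T and NK cell markers only Cd4 passed, with sums of 6.23 to 7.07, 3.81 to 4.44 and 2.85 to 3.66 TPM and Cd3g listed at 0 throughout. Of 6 neutrophil and precursor markers 4 passed, with sums of 27.7 to 30.9, 24.5 to 26.2 and 40.8 to 42.4 TPM, and none was called in Met + LPS vs LPS at the adjusted threshold. The part of these cell type markers in the class II values was not tested.

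Likeness between the members' profiles across the 6 libraries varied. Pearson's r of log2(TPM + 1) was 0.99 between H2-DMa and H2-DMb1 and 0.98 between H2-Aa and H2-Eb1. It was 0.72 between Cd74 and Ciita, 0.47 between H2-Ab1 and Ciita and -0.14 between H2-DMa and Ciita. These describe 6 points in 3 groups that the members have in common, and no p was computed.

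Genes with a profile much like that of Ciita, outside the lists, included the nuclear body gene Pml (r = 0.99) and the interferon-induced antiviral gene Ifitm3 (r = 0.99). Those most like Cd74 were Mir22hg, the beta-actin gene Actb and the transcription factor gene Klf2 (r from 0.995 to 0.997), and Actb went from 4830 and 4690 to 6088 and 6275 and then to 4183 and 3923 TPM. Those most like H2-Ab1 were Dpysl2, Carhsp1 and Dgka (r from 0.996 to 0.998). Such likeness was common, as r exceeded 0.95 for 133 of the 12755 tested genes with Ciita, 102 with Cd74 and 136 with H2-Ab1.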

How the data were processed

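Poly-A RNA was sequenced single-end. The authors mapped reads to GRCm38 (annotation release 94) with STAR 2.6.1d, counted them per gene with featureCounts (Subread 1.6.3) and deposited TPM for 54532 genes, replicates unpooled. How counts became TPM, and whether strand was used in counting, is not given in the sources used here. TPM of every library sum to the same total, so differences in RNA per cell are not visible.

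The 12755 genes that reached 1 TPM in 2 or more libraries were tested with limma 3.58.1 (R 4.3.3, trend) on log2(TPM + 1), all libraries in a common fit without covariates (3 residual degrees of freedom) and Benjamini-Hochberg adjustment. A gene was called at an adjusted p under 0.01. The study's log2 fold-change cut-offs were 2 (LPS vs untreated) and 0.7 (Met + LPS vs LPS), and 2 was used here for Met + LPS vs untreated too. Fold changes on this scale understate changes of low genes. The fit was also run on simulated reads with few changed genes and a fixed spread. That setting is unlike these data, so the simulation does not bear on the calls.

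Reads were recovered because 96.0% to 96.2% of values were whole multiples of a library's step within 0.01 read, using GENCODE lengths. For 7 of the 8 members and 604 tested genes in all, the length was instead solved from the values. Intervals cover the spread between libraries, and read numbers counting error only.

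The members and lists were chosen with earlier results of these data known. Named beyond the members were up to 4 called genes per list with the largest change, the enhanceosome factors, and the 3 genes most like Ciita, Cd74 and H2-Ab1, of which 1 is not reported here. Promoters came from RefSeq (GRCm38.p6), with entries for 5 of the 8 members.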

Additional observations from a re-analysis of the deposited data

How the results depend on the processing

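The next count leaves out fits without an untreated library, in which not every member kept its call in Met + LPS vs LPS. Of 91 fold changes of single members under the other alternatives in Met + LPS vs LPS, 84 kept direction and call, and the other 7, all of Ciita, kept direction only. The number of members called there stayed between 6 and 7 in every alternative run. Shares of all genes called are not given here for fits with a library left out, without the filter or without the trend. In LPS vs untreated, the number of members called was lower when a compared library was left out than with all libraries. It was 3 without the filter or trend, 5 with median-ratio rescaling and 6, all higher, in voom with rescaling. In Met + LPS vs untreated it lay between 4 and 6. With median-ratio rescaling 58.7% of all tested genes were called in LPS vs untreated, and 64.9% in voom with rescaling, 31.9% higher. These shares were 33.1% and 41.6% in Met + LPS vs LPS, and 63.5% and 70.1% in Met + LPS vs untreated. Members past the study's fold-change cut-off in Met + LPS vs LPS numbered 1 (H2-DMa) with a pseudocount of 0.1, in voom on recovered reads and in voom with rescaled libraries (both added after seeing the data), and 0 to 1 when a library was left out (1 without LPS replicate A or Met + LPS replicate A). In Met + LPS vs untreated, 1 member, H2-DMa at -1.17, passed a cut-off of 1. The shares of all tested genes past these cut-offs in these settings are not given here, so the counts cannot be set against them. In LPS vs untreated, median-ratio rescaling turned H2-DMb1 to 0.22 and H2-Aa to 0.45 on the log2 scale, and voom with rescaling to 0.23 and 0.46. H2-Eb1 lay between -0.0482 (without LPS replicate B) and 0.115 when a library was left out. In Met + LPS vs untreated, the same 2 fits turned H2-Ab1 to 0.0529 and 0.0612, H2-Aa to 0.0440 and 0.0520, and Cd74 to 0.24 and 0.25. The rescaling divides all values of a library by a common factor, and the choice between the scales was not tested. With the replicate letter as a block the numbers of members called were 4, 7 and 6 and no call changed. The A minus B differences of the groups correlated at -0.00 to 0.03, and the labels do not say what a letter marks, so the libraries were not treated as pairs. Depth limits H2-DMb2, with 2 to 15 reads per library.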
